A study of Mus musculus with 8 samples.

Results

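The data are droplet single-cell transcriptomes of handpicked mouse islets, and the cells described here are those that the deposited annotation calls delta cells. Of 6959 annotated cells, 686 carried this label, 328 of 3776 in the vehicle library and 358 of 3183 in the FAKi library. Membership was read from the annotation, which holds the cells in 2 clusters, numbered 6 (383 cells) and 8 (303 cells). Islets came from wild-type mice given vehicle or PF-562271 by oral gavage, and were isolated 10 days after the last dose. PF-562271 is a small molecule that blocks the kinase activity of focal adhesion kinase (FAK, encoded by Ptk2) and is called FAKi here. Each dose was 50 mg/kg, and 2 doses were given a day. By the labels, both groups were wild-type and differed in the compound given, and mice of the study were 6 to 12 weeks old when experiments began. Each library pooled the islets of 5 mice and was sequenced over 4 lanes, so each treatment stands as 1 library. No test between treatments, p-value or standard error between mice is therefore possible. Levels are given with exact Poisson intervals, shares with exact binomial (Clopper-Pearson) intervals and ratios with exact conditional intervals, all at 95%, and all cover counting error only. A difference between the libraries cannot be told apart from a difference between the 2 pools of mice or between the 2 preparations. The libraries held 59514118 (vehicle) and 57836783 (FAKi) unique molecular identifiers (UMIs, counted RNA molecules), of which cluster 6 held 2304970 and 2597491 and cluster 8 held 2362728 and 2941948. The libraries shared 4 cell barcodes, and 0 of these belonged to delta cells.

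Delta cells are the somatostatin-secreting cells of the islet. Somatostatin acts on neighbouring cells through inhibitory receptors and restrains the release of both insulin and glucagon, so that a small population sets the tone for the whole islet. The cells extend long processes, fire action potentials at stimulatory glucose, and respond to ghrelin, to GLP-1 and to signals from beta cells. The factor HHEX maintains their identity. Pancreatic polypeptide cells, called PP or gamma cells, are another rare islet type and release the peptide encoded by Ppy.

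The label was checked first against the 4 markers Sst, Rbp4, Hhex and Ghsr. Levels are a gene's summed UMIs per 1000000 UMIs of the group (CPM), and since each molecule is counted from its 3′ end, they are not scaled by gene length. In cluster 6, Sst stood at 213487 CPM (vehicle) and 219821 CPM (FAKi). Single cells of cluster 6 in the vehicle library held between 30303 and 353356 CPM of Sst, with a median of 205752 CPM. Sst was the leading hormone (highest of Sst, Ppy, Pyy, Gcg and Ins2 in that cell) in 186 of 188 vehicle cells and 195 of 195 FAKi cells of cluster 6. Rbp4, which encodes a retinol carrier, was at 6015 and 6925 CPM there. Hhex was at 399 and 475 CPM. Ghsr, the ghrelin receptor, was at 30.8 and 26.2 CPM. All 4 markers were thus present in cluster 6 in both libraries.

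Cluster 8 went against its label. Among its leading genes over all other cells were Ppy, Pyy, Serpina7, Folr1, Tspan8, Calb1, Gc and Uchl1, none of which is a delta marker of the list. Ppy stood at 278292 and 263888 CPM and Pyy at 123189 and 150068 CPM. Sst reached 6909 and 7524 CPM and Hhex 10.6 and 7.48 CPM, both far below cluster 6. Ghsr was at 0 of 140 vehicle cells, which allows a share of cells with a UMI of up to 2.14% (3 cells in 140), or 2.60% as the upper Clopper-Pearson bound, and at 1.02 CPM (3 UMIs) in the FAKi library. The cluster is therefore named here by its number and by its leading genes, and the 2 clusters are described apart.

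Both leading genes of cluster 8 encode peptides of the neuropeptide Y family, and they are neighbours. Ppy lies at chr11:102099930-102101319 and Pyy at chr11:102106676-102107832, both on the minus strand, with 5356 bases between them. Sst lies at chr16:23889573-23890958, Rbp4 at chr19:38116629-38125281, Hhex at chr19:37434810-37440731 and Ghsr at chr3:27371351-27378010 (GENCODE annotation of GRCm38). The runs before the start sites of the 2 neighbours are shown because both genes led cluster 8, and the short Sst run because it holds the best known element of an islet hormone promoter. All are from RefSeq, build GRCm38.p6, printed in the gene's own direction, with the matched motif in capitals.
Ppy, chr11:102101320-102101569, minus strand: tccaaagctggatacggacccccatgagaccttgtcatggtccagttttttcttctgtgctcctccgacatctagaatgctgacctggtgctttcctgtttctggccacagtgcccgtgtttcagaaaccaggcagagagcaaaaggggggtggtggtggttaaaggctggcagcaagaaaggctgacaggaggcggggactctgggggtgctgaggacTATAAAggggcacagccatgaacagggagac
Pyy, chr11:102107833-102108082, minus strand: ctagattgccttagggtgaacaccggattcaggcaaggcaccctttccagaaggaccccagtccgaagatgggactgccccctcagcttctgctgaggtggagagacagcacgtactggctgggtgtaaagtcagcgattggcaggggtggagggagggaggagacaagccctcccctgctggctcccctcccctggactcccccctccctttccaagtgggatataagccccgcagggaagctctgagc
Sst, chr16:23890874-23890903, minus strand: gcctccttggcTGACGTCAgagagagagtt
The Sst run holds TGACGTCA, the cAMP response element, which 1.79% of 32851 whole RefSeq promoter windows of 300 bases hold on either strand. The run shown is a short piece of such a window. It lies inside the GENCODE span of Sst given above, so by that annotation it is not upstream of the gene. The Ppy run holds TATAAA, the core of a TATA box, found in 13.6% of those windows. The letters TAATTA, a homeodomain core, are in 5.29% of windows and in none of the 3 runs. Motif matches are a description of the letters and not of factor binding.

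**Figure D1:**
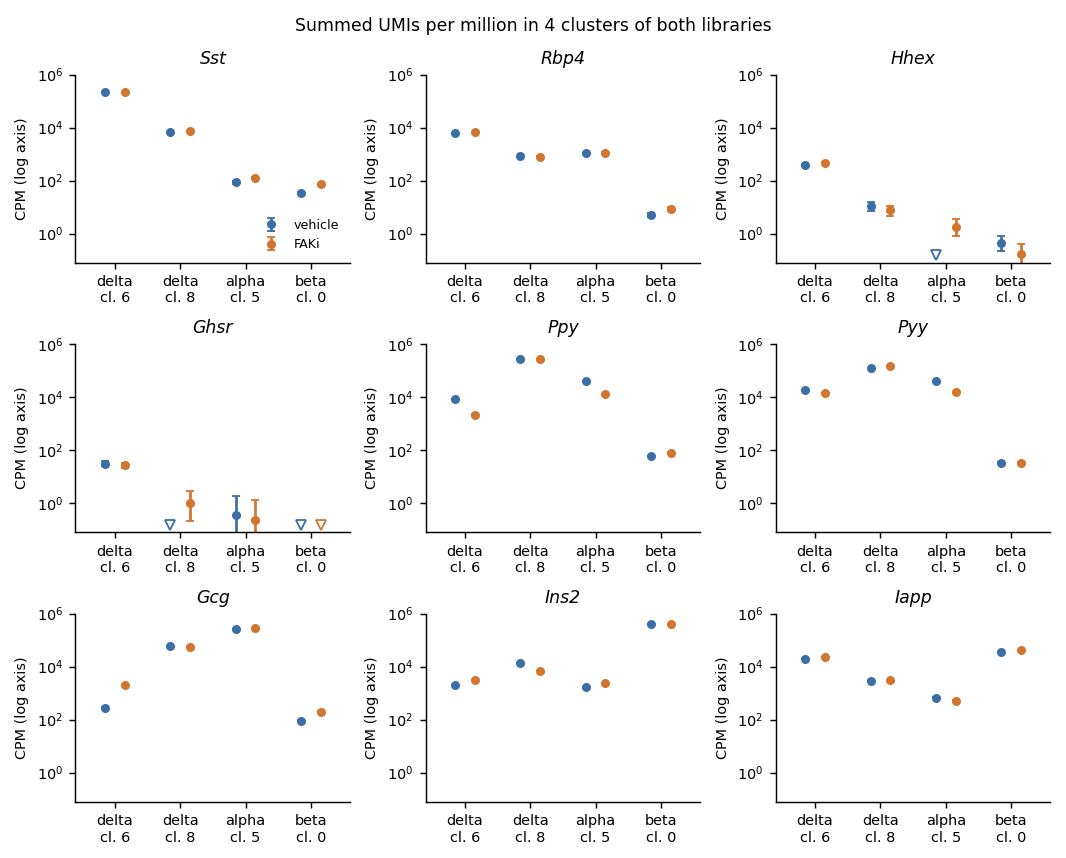
Summed UMIs scaled to CPM (log axis) of 9 genes in delta clusters 6 and 8, alpha cluster 5 and beta cluster 0, with vehicle in blue, FAKi in orange, bars for 95% Poisson intervals and open triangles for groups with no UMI. Sst, Rbp4, Hhex and Ghsr are highest in cluster 6, whereas Ppy and Pyy are highest in cluster 8.

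To describe what sets delta cells apart, the Sst-led cluster 6 was compared with alpha cluster 5 (186 and 266 cells, led by Gcg) and beta cluster 0 (650 and 675 cells, led by Ins2), the largest cluster of each class. The clusters were made by the study from the expression of these same cells, so the differences are descriptions and not tests. A gene was compared where both groups together held at least 100 UMIs, and counted where it differed at least 2-fold on the log2(CPM + 1) scale. Over alpha cluster 5, 9.01% of 5880 genes were higher in cluster 6 in the vehicle library and 2.57% lower, against 7.84% and 3.73% of 6962 in the FAKi library. Over beta cluster 0, 36.2% of 9470 genes were higher and 3.44% lower in the vehicle library (3432 and 326 genes), against 35% and 3.26% of 9502 genes (3323 and 310) in the FAKi library. That uneven split moved with the scaling. Insulin RNA fills much of a beta cell (Ins2 401354 and 408223 CPM in beta cluster 0), and when the 20 most abundant genes were left out of the denominator, the split over beta cluster 0 became 666 higher and 927 lower genes in the vehicle library and 633 and 915 in the FAKi library. The median over all genes then moved from a log2 ratio of 0.81 to -0.075 (vehicle) and from 0.80 to -0.11 (FAKi). Values over beta cells are therefore to be read against these medians. Over alpha cluster 5 the median of all genes was 0.29 and 0.20, and 0.084 and 0.054 without those 20 genes.

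Among transcription factors of the islet, cluster 6 held Hhex and Neurog3, which were nearly absent from alpha cluster 5 and beta cluster 0. It also held Pdx1, which was nearly absent from alpha cluster 5 alone. Of the 29 listed factors, 23 could be set against alpha cluster 5 in vehicle, and 11 were higher and 5 lower in cluster 6. In the FAKi library 9 of 24 were higher and 5 lower. Of all genes 9.01% were higher and 2.57% lower in vehicle and 7.84% and 3.73% in FAKi. Without the 20 most abundant genes the counts were 7 and 5 in the vehicle library and 9 and 7 in the FAKi library. Hhex had no UMI in alpha cluster 5 of the vehicle library and 1.83 CPM in the FAKi library, and 0.442 and 0.164 CPM in beta cluster 0. Pdx1, the pancreatic master factor that beta cells keep, was at 116 and 124 CPM in cluster 6 and 0.688 and 0.687 CPM in alpha cluster 5, and its ratio to beta cluster 0 was 0.790 (0.695 to 0.895) in the vehicle library. Pdx1 thus grouped cluster 6 with beta cells. Neurog3, which starts the endocrine programme in the embryo, was at 57.7 and 45.4 CPM in cluster 6 and at no more than 1 UMI in alpha cluster 5 and beta cluster 0 of either library. Isl1, a LIM homeodomain factor of all endocrine cells, was at 486 and 471 CPM, higher than in alpha cluster 5 by a ratio of 2.30 (2.09 to 2.55) and 1.97 (1.81 to 2.14). Rfx3, a regulator of ciliary genes, was at 99.8 and 82.8 CPM in cluster 6 and at 28.5 and 29.3 CPM in alpha cluster 5.

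Some factors of the alpha and beta lineages, Irx2, Mafa and Nkx6-1, were low in cluster 6, unlike Pdx1. Irx2, an Iroquois homeodomain factor of alpha cells, was at 2.60 and 5.01 CPM beside 106 and 116 CPM in alpha cluster 5. Mafa, the factor of mature beta cells, was at 2.17 and 5.01 CPM beside 775 and 620 CPM in beta cluster 0. Nkx6-1 was at 8.68 and 4.62 CPM beside 325 and 277 CPM. Over beta cluster 0, 11 of 24 factors were higher and 4 lower in the vehicle library, where 36.2% of all genes were higher and 3.44% lower. Their median was 0.80, close to the 0.81 of all genes. Without the 20 most abundant genes the vehicle counts became 7 higher and 9 lower. In the FAKi library 7 of 24 were then higher and 8 lower.

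Several receptors of islet cells were present in cluster 6 and others were nearly absent. Of 33 listed receptors only 8 reached 100 UMIs against alpha cluster 5 in the vehicle library, 4 higher and 1 lower, where 9.01% and 2.57% of all genes were. Glp1r, the receptor of the incretin GLP-1, was at 60.7 and 52.7 CPM in cluster 6 and 0.688 and 3.44 CPM in alpha cluster 5. Its ratio to beta cluster 0 was 0.175 (0.147 to 0.207) in the vehicle library and 0.211 (0.176 to 0.249) in the FAKi library. Adra2a, the adrenergic receptor that curbs secretion, was at 49.0 and 41.2 CPM, beside 63.8 and 52.2 CPM in beta cluster 0 and 0.688 and 2.06 CPM in alpha cluster 5. Ffar4, a receptor for long-chain fatty acids, was at 81.6 and 76.6 CPM and 3.08 (2.35 to 4.07) and 3.28 (2.57 to 4.2) times its level in alpha cluster 5. P2ry1, a receptor for extracellular ATP and ADP, was at 33.0 and 45.8 CPM, with 0 and 1 UMI in alpha cluster 5. In contrast, the fatty acid receptor Ffar1 held 3 UMIs and 1 UMI in cluster 6 (1.30 and 0.385 CPM) beside 93.5 and 96.0 CPM in beta cluster 0. Prlr, the prolactin receptor, was at 1.30 and 3.08 CPM beside 1012 and 684 CPM there. Over beta cluster 0, 5 of 18 receptors were higher and 8 lower in the vehicle library and 5 and 9 in the FAKi library. Of all genes 36.2% were higher and 3.44% lower in the vehicle library, so the share of higher receptors was no larger than that of all genes. Without the 20 most abundant genes the counts were 2 higher and 10 lower, and 1 and 10.

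Of 24 listed ion channel genes with enough UMIs, 13 were higher and 5 lower in cluster 6 than in beta cluster 0 in the vehicle library, where 36.2% of all genes were higher and 3.44% lower, with a median of 1.05 where all genes had 0.81. With FAKi, 11 of 23 were higher and 4 lower, and without the 20 most abundant genes the counts were 7 and 5 in the vehicle library and 8 and 4 in the FAKi library. Scn9a, a voltage-gated sodium channel, was at 170 and 145 CPM and stood above alpha cluster 5 by 10.1 (7.49 to 13.9) and 5.80 (4.67 to 7.24) and above beta cluster 0 by 7.86 (6.87 to 9) and 5.55 (4.87 to 6.31). Scn3b, a sodium channel beta subunit, was at 73.3 and 78.9 CPM beside 14.1 and 7.10 CPM in alpha cells. Cacna1h, a T-type calcium channel, was at 34.7 and 47.7 CPM in cluster 6 and at no more than 2.29 CPM in alpha cluster 5. The subunits of the ATP-sensitive potassium channel were well represented, with Abcc8 at 709 and 668 CPM and Kcnj11 at 77.2 and 66.6 CPM. Against alpha cluster 5, 3 of 17 channels were higher and 2 lower in vehicle, where 9.01% of all genes were higher and 2.57% lower. With FAKi 4 of 20 were higher and 3 lower, where 7.84% and 3.73% of all genes were.

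Of the genes by which beta cells take up and use glucose, several were low in cluster 6. Slc2a2, the glucose transporter GLUT2, was at 2.17 and 4.23 CPM beside 414 and 377 CPM in beta cluster 0. G6pc2 was at 5.21 and 3.85 CPM beside 627 and 421 CPM. Gpd2, the mitochondrial glycerol phosphate dehydrogenase, was at 7.81 and 4.23 CPM, below both alpha cluster 5 (57.4 and 60.3 CPM) and beta cluster 0 (50.4 and 51.5 CPM). Of 13 genes of this list compared with beta cluster 0 in the vehicle library, 4 were higher and 4 lower (FAKi 3 and 4 of 11), where 36.2% of all genes were higher and 3.44% lower, and without the 20 most abundant genes 0 were higher and 4 lower in both libraries.

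Among prohormone processing and granule genes, both convertases were present in cluster 6 and the zinc transporter was low. Pcsk2, which encodes the prohormone convertase PC2, was at 2617 and 2290 CPM in cluster 6. Pcsk1, the convertase that dominates in beta cells, was at 69.4 and 45.8 CPM, that is 20.2 (10.7 to 42.9) and 16.7 (9.19 to 33.2) times alpha cluster 5 and 0.259 (0.220 to 0.303) and 0.190 (0.157 to 0.228) times beta cluster 0. Slc30a8, the zinc transporter of insulin granules, was at 7.38 and 8.86 CPM beside 568 and 678 CPM in alpha cluster 5 and 455 and 495 CPM in beta cluster 0. The granins divided, with Chga at 1162 and 976 CPM, below alpha cells (3684 and 4030 CPM), and Scg2 at 3148 and 3267 CPM, above them (678 and 493 CPM). Rab3b, a small GTPase of vesicle fusion, was 7.59 (5.75 to 10.2) and 6.31 (5.04 to 7.97) times its level in alpha cluster 5. Cadps, a priming factor of dense-core vesicles, was at 9.54 and 10.4 CPM beside 178 and 171 CPM. Over alpha cluster 5, 4 of 25 granule genes were higher and 4 lower in vehicle, where 9.01% and 2.57% of all genes were. With FAKi 5 of 26 were higher and 5 lower, where 7.84% and 3.73% of all genes were. Over beta cluster 0, 8 of 27 were higher and 7 lower (FAKi 7 and 7), where 36.2% and 3.44% of all genes were in vehicle. These counts became 3 and 10 (FAKi 3 and 11) without the 20 most abundant genes.

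Genes of adhesion and axon guidance held several that were higher in cluster 6, as did all genes compared (9.01% and 36.2% higher in the vehicle library, above). Of 11 compared with alpha cluster 5, 5 were higher and 0 lower in the vehicle library (FAKi 5 and 1), with a median of 0.83 where all genes had 0.29. Of 13 compared with beta cluster 0, 8 were higher and 2 lower in both libraries, with a median of 1.53 in the vehicle library where all genes had 0.81. Without the 20 most abundant genes, 6 were higher and 2 lower (FAKi 6 and 3) over beta cluster 0. Unc5c, a netrin receptor, was at 137 and 145 CPM beside 19.3 and 20.6 CPM in alpha cells and 3.002 and 4.23 CPM in beta cells. Gap43, a protein of growth cones, was at 238 and 249 CPM. Cdh2 (N-cadherin) was at 260 and 244 CPM beside 69.1 and 84.5 CPM in alpha cells. Ptk2 itself, the target of the compound, was at 22.6 and 20.4 CPM in cluster 6. Of 15 focal adhesion genes compared with alpha cluster 5 in the vehicle library, 0 were higher and 1, the integrin gene Itgav, was lower (FAKi 1 and 1 of 16). Over beta cluster 0, 8 of 21 were higher and 1 lower (FAKi 10 and 1), which became 3 and 2 (FAKi 2 and 3) without the 20 most abundant genes.

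**Figure D2:**
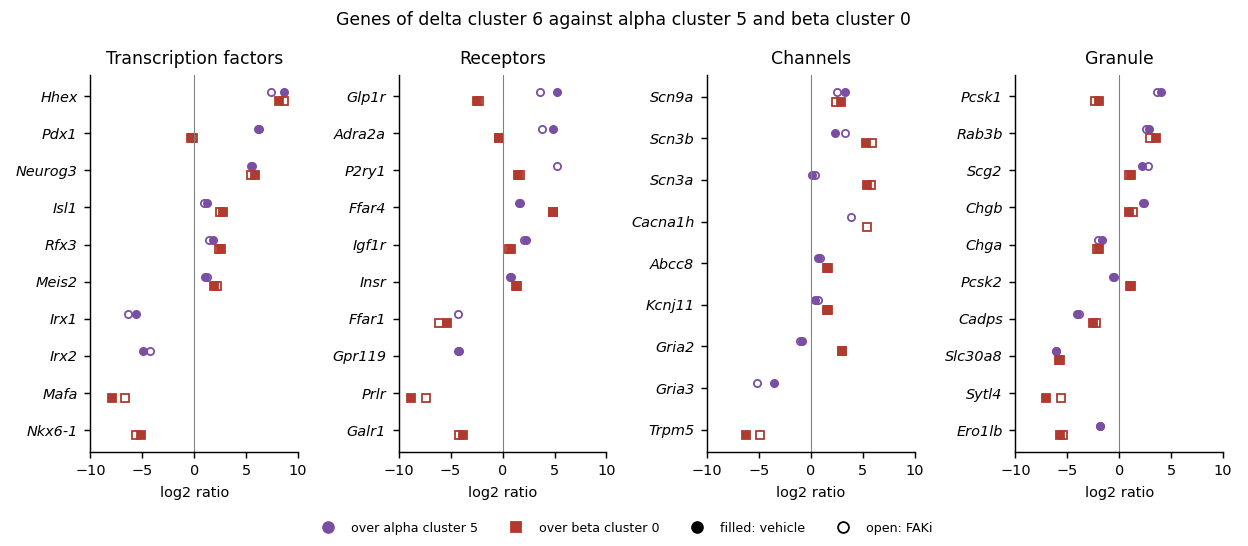
Log2 ratio on the log2(CPM + 1) scale of delta cluster 6 over alpha cluster 5 (circles) and over beta cluster 0 (squares), filled for vehicle and open for FAKi, for genes that held 100 UMIs or more when both groups were summed. Pdx1 lies near 0 against beta cells and above 6 against alpha cells, while Slc30a8 lies below -5 against both.

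The peptides of cluster 6 went beyond somatostatin. Iapp, which encodes amylin and is known best from beta cells, was at 19135 and 23403 CPM in cluster 6, beside 34879 and 40759 CPM in beta cluster 0 and 678 and 522 CPM in alpha cluster 5. Pyy was at 18721 and 14415 CPM. Pdyn, the precursor of the dynorphin opioid peptides, was at 82.4 and 112 CPM, which was 5.14 (4.29 to 6.15) and 4.76 (4.12 to 5.49) times its level in beta cluster 0. Ins2 was at 2024 and 3101 CPM in cluster 6, with 1852 and 2872 CPM in the median cell. Endothelial and immune cells of the same libraries, which do not make insulin, held 2673 and 6267 CPM of Ins2 in the median cell. Gcg was at 266 and 2037 CPM in cluster 6, with 159 and 422 CPM in the median cell, beside 166 and 650 CPM in the median endothelial or immune cell. In CPM, median levels of both hormones in cluster 6 were thus not above those in cells that make neither. Those cells were shallower, with median depths of 5186 and 4883 UMIs against 12519.5 and 12747 in cluster 6. Counts per cell were not compared, so CPM at unlike depths cannot settle whether cluster 6 held more than the background. Sst summed over endothelial and immune cells was 600 and 678 CPM, with 0 and 78.7 CPM in the median cell, so Sst in cluster 6 was far above it.

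Shares of cells with a UMI were compared after each cell was thinned to 5000 UMIs. Hhex was found in 81.0% (vehicle) and 88.5% (FAKi) of such cells in cluster 6, and in 97.9% and 99.0% without thinning. In endothelial and immune cells, with median depths of 5186 and 4883 UMIs against 12519.5 and 12747 in cluster 6, the thinned share was 20.04% and 24.9%. Endothelial cells are known to express Hhex. Ghsr was found in 16.2% and 17.2% of thinned cells of cluster 6, and in 29.3% and 29.7% of them at full depth. In cluster 8 it was found in 0 of 98 and 0 of 122 thinned cells, in 1.59% and 0% of thinned alpha cells, and in 0% of thinned beta cells and of endothelial and immune cells. At full depth 9 and 8 alpha cells held a Ghsr UMI, beside 55 and 58 cells of cluster 6, and 8 and 7 of these alpha cells were in alpha cluster 9.

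The genes that the whole delta class held furthest above both the alpha and the beta class in both libraries were higher in cluster 6 than in cluster 8. Over the alpha class 257 genes were higher (3.48% of 7379) in the vehicle library and 283 (3.36% of 8435) in the FAKi library, and over the beta class 1920 (18.6% of 10346) and 1904 (18.1% of 10516). Those over the beta class fell to 673 and 716 without the 20 most abundant genes. Ranked by the smallest of their 4 differences, the 15 leading genes, all of them higher in cluster 6 than in cluster 8 in both libraries, were Ptprz1, Mef2c, Sst, Shisal2b, Cd44, Bmp3, Cfap61, Hhex, Kcnc2, Adgrf5, Dpp6, Cacna2d2, Ly6h, F5 and Cd24a. Ly6h, a GPI-anchored modulator of nicotinic receptors, was at 654 and 630 CPM in cluster 6 and 15.7 and 9.52 CPM in cluster 8. Ptprz1, a receptor tyrosine phosphatase, was at 192 and 194 CPM, with 0 UMIs in alpha cluster 5 of both libraries. Bmp3, a secreted BMP antagonist, was at 58.1 and 62.4 CPM, with 0 UMIs in alpha cluster 5 and beta cluster 0 of both libraries. Dpp6 (266 and 259 CPM) and Kcnc2 (45.1 and 37.3 CPM) encode an auxiliary subunit and a pore subunit of neuronal potassium channels. Cacna2d2, an auxiliary subunit of calcium channels, was at 52.9 and 47.4 CPM. Mef2c was at 189 and 165 CPM in cluster 6, but endothelial and immune cells held more (398 and 286 CPM). Adgrf5 was at 59.4 and 70.5 CPM, again below those cells (392 and 365 CPM).

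The class was below both others, in both libraries, in genes led by Slc30a8, Ociad2, Cbs, Maob, Gpd2, Ffar1, Skap1, Nell1, Slc38a4 and Ddc. Ddc, which makes dopamine and serotonin from their precursors, was at 16.1 and 4.23 CPM in cluster 6 and 142 and 131 CPM in cluster 8, beside 271 and 293 CPM in alpha cluster 5. Maob, which breaks amines down, was at 5.21 and 6.93 CPM in cluster 6. Cbs, an enzyme of homocysteine metabolism, was at 1.74 and 0.770 CPM. Over the alpha class 162 genes (2.2%) and 311 (3.69%) were lower in the vehicle and FAKi libraries, and over the beta class 382 (3.69%) and 346 (3.29%), which became 819 and 792 without the 20 most abundant genes.

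Cluster 8 differed from cluster 6 in most of what marks delta cells. Compared with cluster 6, 68 genes (1.34% of 5067) were higher in cluster 8 and 1022 (20.2%) lower in the vehicle library, against 74 (1.32% of 5593) and 1126 (20.1%) in the FAKi library. The median of all genes was -0.62 and -0.57, and without the 20 most abundant genes it was -0.045 and -0.0059, with 141 higher and 323 lower genes in the vehicle library and 184 and 360 in the FAKi library. Of 10 genes compared from a list of genes known to be high in delta cells, 9 were lower in cluster 8 in both libraries. The alpha markers went the other way, with 5 of 6 (vehicle) and 7 of 7 (FAKi) higher and 0 lower. Markers of other types moved too, with 4 of 6 beta markers higher and 2 lower in vehicle (FAKi 2 and 2 of 7) and 9 of 11 acinar markers higher in vehicle (FAKi 0 of 11). Cluster 8 held 23 and 29 Gcg-led cells, and their part in the alpha markers was not tested. Ttr, which encodes transthyretin, was at 4840 and 3944 CPM beside 33.0 and 62.4 CPM in cluster 6. Tspan8, a tetraspanin, was at 641 and 677 CPM beside 182 and 124 CPM. It is 1 of the listed markers of PP cells, of which 6 were compared in each library. Without the 20 most abundant genes, 4 of these were higher and 1 lower in vehicle (141 and 323 of all 5067 genes). In FAKi 4 were higher and 2 lower (184 and 360 of all 5593 genes). Etv1, an ETS factor, was alike in the clusters, at 311 and 246 CPM in cluster 8 and 273 and 196 CPM in cluster 6. Of 21 transcription factors compared, 13 were lower and 2 higher in cluster 8 in the vehicle library (FAKi 14 and 3). Of 14 focal adhesion genes 0 were higher and 6 lower in both libraries, which became 1 and 2 lower without the 20 most abundant genes.

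Cells of cluster 8 were of several kinds when sorted by their leading hormone. In the vehicle library 69 of 140 cells were led by Ppy, 4 by Pyy, 25 by Sst, 23 by Gcg and 19 by Ins2. In the FAKi library the counts were 85, 15, 24, 29 and 10 of 163. The 73 and 100 cells led by Ppy or Pyy were deep, with medians of 26608 and 24760.5 UMIs, and 0 of them were called doublets. The other 67 and 63 cells had medians of 3169 and 2460 UMIs, and 1 and 8 of them were called doublets. Depth and doublet calls thus moved with the leading hormone, and their part in it was not tested.

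Against cluster 6, the cells of cluster 8 led by Ppy or Pyy had 57 higher genes (1.23% of 4637) and 1343 lower (29%) in vehicle, and 66 (1.25% of 5299) and 1177 (22.2%) in FAKi. In cells of cluster 8 led by Ppy or Pyy with at least 2000 UMIs (71 and 97 cells), the delta markers were far below cluster 6. Sst was at 42.9 and 149 CPM. Endothelial and immune cells held 600 and 678 CPM in sum, but 5 cells held 92.2% and 83.6% of those UMIs and the median cell held 0 and 78.7 CPM. Hhex was at 1.10 and 0.407 CPM and Ghsr at 0 in both libraries. Ppy stood at 356583 and 315013 CPM and Pyy at 155490 and 178626 CPM. Rbp4 remained at 576 and 585 CPM.

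The Sst-led cells inside cluster 8 were mostly shallow. In each library 17 of them held under 2000 UMIs, with medians of 920 and 840 UMIs. Their Sst was at 197529 and 325508 CPM and Rbp4 at 10830 and 10222 CPM. The other 8 and 7 cells had Sst at 173854 and 269931 CPM and Hhex at 228 and 221 CPM, together with Chga at 14558 and 11571 CPM. Gcg-led cells of cluster 8 (23 and 29 cells) held Gcg at 452947 and 491167 CPM. Cluster 8 therefore held cells whose leading hormone was that of each main endocrine type.

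Cells rich in Sst were also found outside the delta class. With a limit of 100000 CPM of Sst in the cell, set after the data were seen, 238 vehicle cells and 260 FAKi cells were Sst-rich. Cluster 6 held 182 of them (76.5%) and 193 (74.2%), cluster 8 held 24 and 23, and alpha cluster 9 held 26 and 39. By leading hormone, 31 of 87 vehicle cells of alpha cluster 9 (35.6%, 25.6 to 46.6) and 48 of 168 FAKi cells (28.6%, 21.9 to 36.0) were led by Sst. Those cells held the delta profile, with Hhex at 397 and 454 CPM, Rbp4 at 6532 and 7537 CPM, Ghsr at 30.8 and 15.6 CPM, Ly6h at 726 and 605 CPM and Cd24a at 777 and 634 CPM. They also held Prss2, which encodes a trypsinogen of acinar cells, at 4916 and 3613 CPM, beside 64.6 and 179 CPM in cluster 6. Summed over 12 acinar markers, the alpha class that holds these cells was at 7725 and 8677 CPM, beside 671 and 1401 CPM in cluster 6. Whether Prss2 was particular to the Sst-led cells was not tested. Compared with cluster 6, 31 genes (0.856% of 3620) were higher and 93 (2.57%) lower in them in the vehicle library, and 29 (0.729% of 3978) and 103 (2.59%) in the FAKi library. Cells with both Sst and Gcg above their limits numbered 1 in each library.

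Cells rich in Ppy were counted at 10000 CPM of Ppy in the cell. They made up 118 of 328 delta cells (36.0%) in the vehicle library and 120 of 358 (33.5%) in the FAKi library. In cluster 6 they were 31 of 188 (16.5%, 11.5 to 22.6) and 15 of 195 (7.69%, 4.37 to 12.4). In cluster 8 they were 87 of 140 (62.1%, 53.6 to 70.2) and 105 of 163 (64.4%, 56.6 to 71.7). After thinning to 5000 UMIs the shares in cluster 6 were 16.8% and 7.29%. Endothelial and immune cells had 4 of 953 (0.420%) and 4 of 361 (1.11%), at median depths of 5186 and 4883 UMIs. The cells nearest the limit in cluster 6 were at 9782 and 10319 CPM in the vehicle library and at 9951 and 10285 CPM in the FAKi library. The limit cuts a range, since 31 and 18 cells of cluster 6 lay between 5000 and 20000 CPM. Alpha cluster 5 went the same way as cluster 6, with 43 of 186 (23.1%) and 30 of 266 cells (11.3%).

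**Figure D3:**
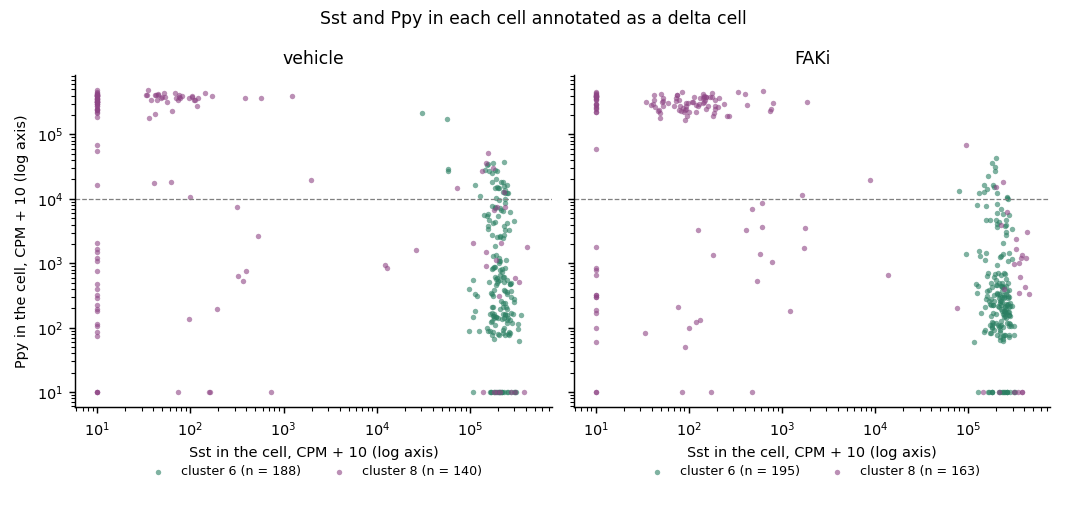
Sst against Ppy in each delta cell (CPM + 10, log axes), vehicle left and FAKi right, cluster 6 in green and cluster 8 in purple, with the limit for Ppy-rich cells dashed. Cluster 6 forms 1 column at high Sst with a wide range of Ppy, and most of cluster 8 lies at high Ppy and little Sst.

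Ppy-rich cells of cluster 6 held Sst somewhat below and Hhex near the level of its other cells. Their Sst was 172407 CPM against 221071 CPM in the other cells of cluster 6 in the vehicle library, and 182153 against 222584 CPM in the FAKi library. Hhex was 412 against 396 CPM and 490 against 474 CPM. The ratio of Rbp4 was 0.823 (0.783 to 0.864) in vehicle and 0.979 (0.922 to 1.04) in FAKi, and that of Iapp 0.790 (0.768 to 0.813) and 0.774 (0.747 to 0.802). Pyy was at 32114 against 16248 CPM in the vehicle library and 22533 against 13820 CPM in the FAKi library. Tspan8, which also led cluster 8, was at 309 against 158 CPM and 186 against 120 CPM, and its median cell at 174 against 149 CPM and 148 against 91.2 CPM. The Ppy-rich vehicle cells include 2 that were led by Ppy, with Sst at 30303 and 56425 CPM, and the FAKi cells include 0. Without these 2 cells, a choice made after seeing the data, the vehicle values of the Ppy-rich cells were 194300 CPM for Sst, 464 CPM for Hhex, 21938 CPM for Pyy and 237 CPM for Tspan8. Beside the Ppy that chose them, these cells had more Pyy, somewhat less Sst and a like level of Hhex.

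Pdyn, the dynorphin precursor, is described next because of its values in the Ppy-rich cells of cluster 6, so they are a description and not a result. Of 3180 genes compared in both libraries, Ppy itself (used to choose the cells) was higher at least 2-fold in both, and 4 were lower in both, Pdyn, Megf9, Hgfac and Kmt5b, which are named because they were seen among them. All 4 reached the minimum of UMIs through the other cells, where they were higher. In single libraries 8 genes (0.243% of 3293) were higher and 26 (0.79%) lower in the vehicle library, and 35 (0.976% of 3585) and 122 (3.4%) in the FAKi library. Pdyn stood at 5.57 CPM (2 UMIs in 31 cells) in Ppy-rich cells and 96.6 CPM (188 UMIs in 157 cells) in the others in the vehicle library, a ratio of 0.0576 (0.00693 to 0.211), which was 0.0671 (0.00807 to 0.246) without the 2 Ppy-led cells. In the FAKi library it stood at 11.3 CPM (2 UMIs in 15 cells) and 119 CPM (288 UMIs in 180 cells), a ratio of 0.0947 (0.0114 to 0.345). Cells with a Pdyn UMI were 6.45% against 27.4% in the vehicle library and 13.3% against 43.9% in the FAKi library. Endothelial and immune cells had a Pdyn UMI in 0.735% and 2.49% of cells, at median depths of 5186 and 4883 UMIs. Median depth in cluster 6 was 10105 UMIs in Ppy-rich cells and 12625 in the others (vehicle), and 11576 and 12919.5 (FAKi), and 0 of these cells were called doublets. Megf9, Hgfac and Kmt5b rested on 3 to 13 UMIs in the Ppy-rich cells and Pdyn on 2 in each library. In the FAKi library the intervals of Megf9 (0.0791 to 1.17) and Kmt5b (0.154 to 1.15) included an equal level.

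Pdyn was also split by the Ppy level of the cell. In the vehicle library, cells of cluster 6 with Ppy under 100 CPM held 102 CPM of Pdyn, and those with 100 to 1000 CPM of Ppy held 129 CPM. Those with 1000 to 10000 CPM of Ppy held 12.0 CPM (3.91 to 28.1), from 5 UMIs in 38 cells. The same ranges in the FAKi library held 140, 112 and 112 CPM of Pdyn, the last from 46 UMIs in 32 cells, 13 of them in 1 cell. The difference between the libraries in this range was not tested. With the limit at 5000 CPM, the log2 ratio of Pdyn in Ppy-rich over other cells was -3.12 with vehicle and -0.74 with FAKi. Cluster 8, where Ppy was high, held 2.54 and 0.680 CPM of Pdyn. The beta class held 14.1 and 22.4 CPM.

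**Figure D4:**
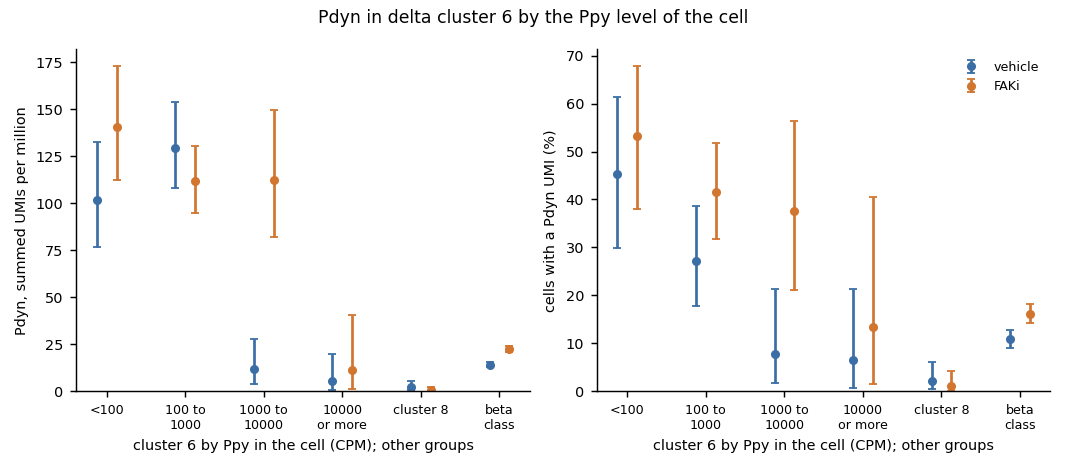
Pdyn as summed CPM with 95% Poisson intervals (left) and as the percent of cells with a UMI with 95% binomial intervals (right), in cells of cluster 6 split by Ppy level, in cluster 8 and in the beta class, with vehicle in blue and FAKi in orange. The Ppy-rich cells of cluster 6 sit at 5.57 and 11.3 CPM, and cells with Ppy under 100 CPM at 102 and 140 CPM.

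The FAKi and vehicle libraries were then compared within each cluster. Over the whole delta class 26 genes (0.326% of 7973) were higher in FAKi and 18 (0.226%) lower, with 39 (0.644% of 6056) and 20 (0.33%) in cluster 6 and 15 (0.334% of 4487) and 17 (0.379%) in cluster 8. In the cells of cluster 8 led by Ppy or Pyy alone there were 20 (0.553% of 3618) and 7 (0.193%). For scale, the alpha class gave 40 (0.512% of 7808) and 15 (0.192%), the beta class 16 (0.145% of 11059) and 40 (0.362%), and endothelial and immune cells 111 (1.28% of 8677) and 338 (3.9%). The counts moved with the processing. A minimum of 20 UMIs gave 76 higher and 92 lower in the class, and averaging over cells gave 64 lower in the class and 52 higher and 273 lower in cluster 8. With 1 library a side these counts include any difference between the 2 preparations.

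The identity of cluster 6 was close between the libraries. Sst differed by a ratio of 1.03, Rbp4 by 1.15 (1.13 to 1.18), Hhex by 1.19 (1.09 to 1.30) and Ghsr by 0.850 (0.600 to 1.20). None of 19 transcription factors, 9 receptors, 20 ion channels or 22 granule genes compared in cluster 6 differed 2-fold, which with 0.644% of all genes higher and 0.33% lower says little about these lists. Ptk2 was at 22.6 CPM in vehicle and 20.4 CPM in FAKi, a ratio of 0.904 (0.605 to 1.35), and of 15 focal adhesion genes 0 were higher and 0 lower. In cluster 8, 0 of 10 focal adhesion genes differed 2-fold. Pdyn was 1.35 (1.12 to 1.64) times as high in FAKi and Iapp 1.22 times, while Pyy was at 0.770 (0.759 to 0.781).

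Among the peptides of cluster 6, Ppy was lower and Gcg higher in FAKi in summed UMIs, and both sums rested in large part on 1 or 2 cells. Gcg rose from 266 to 2037 CPM, but 1 FAKi cell held 4027 of the 5291 Gcg UMIs (76.1%). Without the richest cell of each library Gcg was at 493 CPM in FAKi and 245 CPM in vehicle. The median endothelial or immune cell also rose in Gcg, from 166 CPM in vehicle to 650 CPM in FAKi. Ppy fell from 8245 CPM in vehicle to 2143 CPM in FAKi, a ratio of 0.260 (0.252 to 0.268). The 2 Ppy-led vehicle cells held 10245 of its 19004 UMIs (53.9%), and without them vehicle stood at 3886 CPM and the ratio at 0.551 (0.533 to 0.570), under a 2-fold difference. The median cell went from 424 to 250 CPM. In cluster 8 it was 278292 and 263888 CPM, a log2 ratio of -0.077. The alpha class had a log2 ratio of -1.47 for the same gene. In endothelial and immune cells the summed log2 ratio was -1.59, where 5 vehicle cells held 81.8% of the Ppy UMIs, but the median cell went the other way, from 0 to 169.6 CPM.

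The heat shock genes Hspb1, Dnajb1 and Hspa1a were higher in FAKi in both delta clusters. Hspb1, a small heat shock protein, was at 932 CPM in FAKi and 338 CPM in vehicle in cluster 6, a ratio of 2.76 (2.55 to 3), and at 346 and 77.5 CPM in cluster 8, a ratio of 4.47 (3.82 to 5.26). Dnajb1, a co-chaperone of HSP70, was at 1796 and 784 CPM in cluster 6, a ratio of 2.29 (2.17 to 2.42), and at 717 and 235 CPM in cluster 8. Hspa1a, an inducible HSP70 named after its values were seen, was at 2439 and 1057 CPM in cluster 6, a ratio of 2.31 (2.20 to 2.42), and at 719 and 308 CPM in cluster 8. The median cell of cluster 6 went from 591 to 2411 CPM of Hspa1a and from 463 to 1647 CPM of Dnajb1, so the difference was not carried by a few cells. Of 19 immediate early genes, 1 was higher and 2 lower in cluster 6, where 0.644% and 0.33% of all genes were, and of 18 in cluster 8, 1 was higher and 1 lower, where 0.334% and 0.379% were. Jun, an AP-1 factor, stayed under a 2-fold difference, with ratios of 1.78 (1.73 to 1.84) in cluster 6 and 1.98 (1.89 to 2.09) in cluster 8. Log2 ratios in the alpha class were of the same sign, 1.09 for Hspb1, 1.20 for Dnajb1 and 0.84 for Hspa1a. In the beta class they were 0.51, 0.081 and 0.21, and in endothelial and immune cells -0.067, 0.19 and 0.62.

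Acinar genes were higher in FAKi in cluster 6, as they were in endothelial and immune cells, which do not make them. Of 11 acinar markers compared in cluster 6, 8 were higher and 0 lower (0.644% and 0.33% of all genes), with a median log2 ratio of 1.29, and endothelial and immune cells, where 1.28% of all genes were higher, gave the same 8 of 11 and the same median of 1.29. Try5, a trypsinogen, was at 95.9 CPM in FAKi and 12.1 CPM in vehicle in cluster 6, a ratio of 7.89 (5.33 to 12.1). Ctrl, a chymotrypsin-like protease, had a ratio of 3.25 (2.20 to 4.94). Summed over the 12 markers, cluster 6 held 671 CPM in vehicle and 1401 CPM in FAKi, cluster 8 held 1637 and 1872 CPM, and endothelial and immune cells held 4435 and 10609 CPM. The alpha class held 7725 and 8677 CPM and the beta class 2677 and 2934 CPM, with 0 of 11 markers past 2-fold in either. Amy2a2, the amylase of the list, was at 0 in both clusters of both libraries. In cluster 8, 1 of 11 acinar markers was higher, where 0.334% of all genes were. After thinning, Prss2 was found in 18.4% and 43.8% of cells of cluster 6 and in 40.1% and 59.0% of endothelial and immune cells. Before thinning the latter were shallower, with medians of 5186 and 4883 UMIs against 12519.5 and 12747 in cluster 6. Thinning removed more from cluster 6, so these shares cannot show whether it lay below the background.

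Of the 10 genes highest in FAKi over vehicle in the delta class, 4 were carried largely by 1 cell. A single FAKi cell of cluster 6 held 1341 of 1344 UMIs of the alpha globin gene Hba-a1 and 4296 of 4323 UMIs of Hbb-bs, and a single cell of cluster 8 held 123 of 191 UMIs of Dapl1. Without its richest cell the log2 ratio of Hba-a1 in cluster 6 was -1.62 and of Hbb-bs -1.35, with Hbb-bt at -1.07. Dapl1 stood at 1.64 in cluster 8 without its richest cell, against 2.51 with it. Slc5a3, the sodium-coupled inositol transporter that cells raise in hypertonic medium, was at 52.0 and 19.1 CPM in cluster 6, a ratio of 2.72 (1.92 to 3.92). Krtap17-1 was at 88.9 and 33.8 CPM, a ratio of 2.63 (2.02 to 3.44).

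Among the genes lower in FAKi, Gm10320 was lower in each of the cell classes compared. It was at 16.9 CPM in FAKi and 93.7 CPM in vehicle in cluster 6, a ratio of 0.181 (0.128 to 0.251), and was below vehicle in cluster 8 (log2 ratio -1.48), the alpha class (-1.53), the beta class (-1.29) and endothelial and immune cells (-1.01). Gstp1, a glutathione transferase, was at 14.2 and 39.9 CPM in cluster 6, with log2 ratios of -1.42 there, -1.29 in cluster 8 and -1.04 in endothelial and immune cells. Dpp7, a lysosomal dipeptidase, had log2 ratios of -1.17 in cluster 6 and -1.19 in cluster 8. Snhg11, a long noncoding RNA, was at 24.6 and 115 CPM in cluster 6, a ratio of 0.214 (0.160 to 0.283), and at 10.5 and 69.8 CPM in cluster 8. Its log2 ratio was 0.13 in the alpha class and -0.89 in the beta class. Olfm3 and Iqcg had too few UMIs within the clusters and stood at log2 ratios of -2.38 and -2.23 over the class.

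Maff, Socs3, Gadd45b, Birc3 and Cxcl10 were lower in FAKi in delta cells. Maff, a small MAF factor, was at 55.4 CPM in FAKi and 134 CPM in vehicle in cluster 6, a ratio of 0.414 (0.337 to 0.506). Socs3, a feedback inhibitor of cytokine signalling, was at 48.9 and 117 CPM, a ratio of 0.419 (0.337 to 0.519). Gadd45b was at 48.9 and 102 CPM. Birc3, an NF-kappaB target, had a log2 ratio of -1.35 in cluster 6 and Cxcl10, a chemokine, -1.55 over the class. Socs3 and Gadd45b were named after their values were seen. In the alpha class the log2 ratios were -0.16 for Maff, 0.87 for Socs3 and 0.28 for Gadd45b, and in the beta class -1.32, -0.59 and -1.11. The difference between delta and alpha cells in this was not tested.

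**Figure D5:**
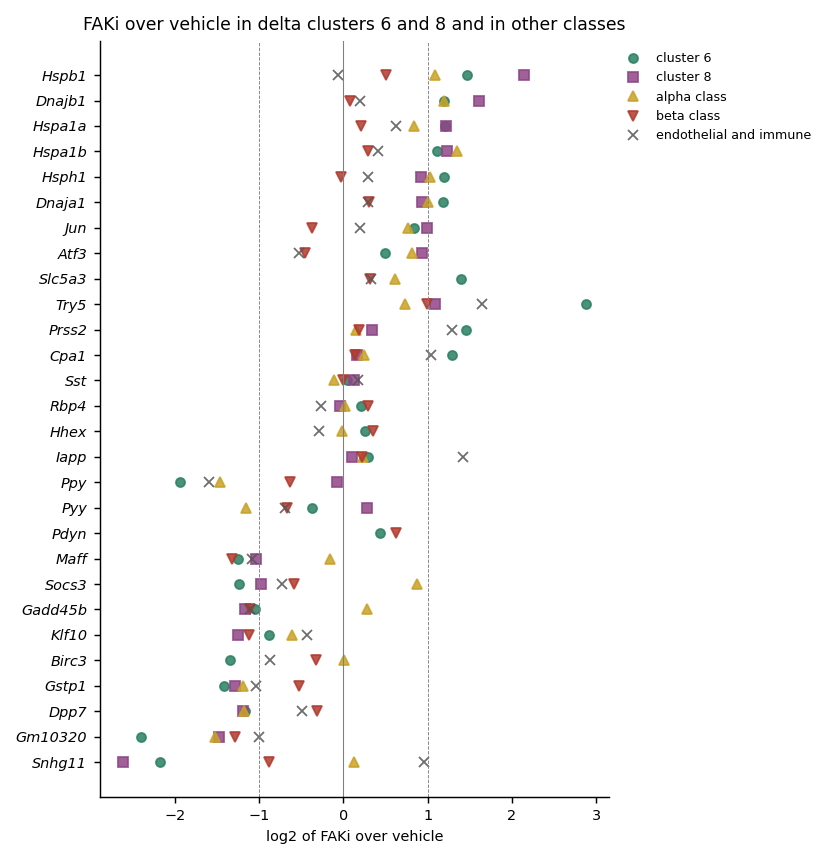
Log2 ratio of FAKi over vehicle on the log2(CPM + 1) scale for 28 genes in delta clusters 6 and 8, the alpha and beta classes, and endothelial and immune cells, with dashed lines at a 2-fold difference. Hspb1 lies at 1.46 and 2.15 in the delta clusters and at -0.067 in endothelial and immune cells, whereas Sst, Rbp4 and Hhex lie near 0.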

How the data were processed

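Islets of vehicle- and FAKi-treated mice were profiled by droplet 3′ single-cell RNA sequencing. The authors aligned the reads to the mouse genome (build mm10, per the labels) with Cell Ranger, set filters with Seurat 3.1, and annotated the cells after SCRAN normalization, scanorama integration and Louvain clustering. The deposited values used here are raw UMI counts per gene and cell, together with the authors' annotation and a deposited percent of mitochondrial UMIs per cell, which stays under 8% (highest 7.99853%). The labels give 8832 and 8437 cells used for sequencing, and the files hold 3776 and 3183 annotated barcodes of the vehicle and FAKi libraries. The 8 samples are 4 lanes of each of 2 libraries and were counted as 2 samples. Of 19945 gene names, 23 had been turned into dates by a spreadsheet and were not used by name.

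Counts were summed over the cells of a group and scaled to CPM. Ratios between groups were computed where both held at least 100 UMIs together, and on the log2 scale with 1 CPM added. With 1 library per condition no test between libraries was run. Summing and ratios were tested on simulated data. Cells were thinned to 5000 UMIs with a fixed seed for shares with a UMI. Doublets were called per library with scrublet in scanpy 1.11.5 (125 of 6959 cells), and were kept in the main values. Intervals were computed with scipy 1.17.1, tables with pandas 2.3.3 and numpy 2.4.6 under Python 3.11.15, and plots with matplotlib 3.10.9. Named genes were the 15 highest and 10 lowest of the delta class over both other classes, the 10 highest and 10 lowest of FAKi over vehicle, and members of fixed gene lists, of which 362 of 373 genes were listed in the table. Some of these genes are not reported here by name and stay in the counts. The members and the lists were chosen with earlier results of these data known. Alternatives changed the denominator, the pseudocount, the minimum of UMIs, the cells kept and the limit for Ppy-rich cells. Strain and length of treatment are not tied to these mice in the sources used here.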

Additional observations from a re-analysis of the deposited data

Results flagged for a closer look

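For 3 of 4345 genes compared in both delta clusters, FAKi and vehicle differed in opposite directions in clusters 6 and 8, at least 2-fold in one of them and with intervals on opposite sides of an equal level, and the difference between the clusters was not tested. Gcg had a log2 ratio of FAKi over vehicle of 2.93 in cluster 6 and -0.021 in cluster 8, where 1 FAKi cell of cluster 6 held 76.1% of the Gcg UMIs of its group. Ins2 had log2 ratios of 0.62 and -1.05, and Ins1 of 0.53 and -1.32. Endothelial and immune cells, which make neither hormone, held 42982 CPM of Ins2 in vehicle and 110187 CPM in FAKi (2673 and 6267 CPM in the median cell), and the part of such RNA in the values of cluster 6 was not tested. In cluster 8, 19 vehicle cells and 10 FAKi cells were led by Ins2, of which 1 and 5 were called doublets. Sst-rich cells were also seen outside the delta, alpha and beta classes, 6 among vehicle and 5 among FAKi cells, under the acinar, ductal, endothelial and macrophage labels.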

How the results depend on the processing

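No paired analysis was possible because each condition is 1 library and the numbers in the labels are sequencing lanes of it. Of 238 recomputed counts and shares, 182 stayed within 1.5 times the value in the text or within its interval, and 56 did not. The cause was not tested where no construction is named. Counts below are given as higher and lower.

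A minimum of 20 UMIs, which compares more genes, gave 649 and 335 genes for delta over alpha cells in vehicle (FAKi 614 and 595), and 76 and 92 for FAKi over vehicle in delta cells. A pseudocount of 10 CPM, which shrinks low genes, gave 154 higher in delta over alpha cells in vehicle (FAKi 170 and 175), 796 and 170 over beta cells (FAKi 774 and 142), and 13 and 5 for FAKi over vehicle. Leaving the 20 most abundant genes out of the denominator gave 673 and 819 over beta cells (FAKi 716 and 792), 666 and 927 for cluster 6 over beta cluster 0 (FAKi 633 and 915), and 141 and 323 for cluster 8 over cluster 6 (FAKi 184 and 360). Without Ppy-rich cells there were 421 higher over alpha cells (FAKi 427), 3378 over beta cells (FAKi 3159), and 41 and 435 for cluster 8 over cluster 6 in vehicle. Averaging over cells gave 64 lower for FAKi over vehicle in delta cells and 52 and 273 in cluster 8. Thinning gave 22 and 9 in cluster 6 and 5 and 0 in cluster 8, and the Ppy- or Pyy-led cells of cluster 8 alone gave 7 lower.

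Limits of 5000 and 20000 CPM gave Ppy-rich shares of 41.5% and 28.7% of vehicle delta cells and 23.9% and 7.45% of vehicle cluster 6, and 20000 CPM gave 2.56% of FAKi cluster 6. Thinning gave 80.6% and 80.3% in cluster 8, where shallow cells were left out. Hhex in cluster 6 was found in 54.8% and 57.9% of cells at 2000 UMIs and in 97.9% and 99.0% at full depth, and Ghsr in 7.98% and 1.54%, and 29.3% and 29.7%.

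Of recomputed values of single genes, 4358 stayed within the counting interval of the value in the text and 1380 did not, and 19 log2 ratios past 2-fold changed sign. Without Ppy-rich cells these were Ppy over alpha cells (-5.42, FAKi -4.35) and beta cells (-0.64, FAKi -0.41), Serpina7 (-1.03) and, in FAKi, Pyy (-0.54) over alpha cells, and for cluster 8 over cluster 6 Ppy (-1.32, FAKi -0.36), Pyy (-1.25, FAKi -1.75) and Tspan8 (FAKi -0.79). In FAKi, Ins2 of cluster 8 over cluster 6 was -0.50 without doublets and -0.74 in Ppy- or Pyy-led cells. Without its richest cell, FAKi over vehicle was -1.22, -1.54 and -1.07 for Hba-a1, Hbb-bs and Hbb-bt in delta cells and -1.62, -1.35 and -1.07 in cluster 6. Pdyn in Ppy-rich over other cells of cluster 6 was recomputed under alternatives chosen after seeing the data. Its log2 ratio ran from -3.76 to -3.12 in vehicle and from -3.21 to -0.74 in FAKi, the last with the limit at 5000 CPM. Since Pdyn was picked for its values in these same cells, the recomputed values are a description and add no support. Depth limits low genes such as Ghsr, and 1 library per condition limits every FAKi value.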
